A study of Danio rerio with 14 samples.

Results

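The minichromosome maintenance (MCM) genes were followed in zebrafish embryos whose parents had been exposed to gamma radiation. The set holds 8 genes: mcm2, mcm3, mcm4, mcm5, mcm6 and mcm7, which encode the 6 subunits of the replicative helicase, mcm10, which encodes a replication initiation factor, and mcm3l, a further MCM3-type gene. The members were chosen by symbol, with earlier results of these data known. Each was listed once in all 3 deposited tables, out of 14077 genes listed in any table and 12120 listed in all of them. Poly(A) RNA came from pools of 100 F1 embryos of the AB wild type strain at 5.5 hours after fertilization (hpf), around the start of gastrulation. The parents, also AB wild type, had received 53 mGy/h or 8.7 mGy/h during gametogenesis or were unexposed controls, and bred 1 month later (the 0 yr brood). Parents of the 8.7 mGy/h and control groups bred again after 1 year (the 1 yr brood). There were 3 libraries for 53 mGy/h at 0 yr, 8.7 mGy/h at 0 yr, 8.7 mGy/h at 1 yr and control at 1 yr, and 2 for control at 0 yr, where a further sample had been lost during RNA extraction. The labels do not say which parents or clutches each pool came from.

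MCM2 to MCM7 form a ring that is loaded onto replication origins in an inactive state by the origin recognition complex, CDC6 and CDT1. The CDC7-DBF4 kinase, CDC45 and the GINS complex then turn it into the active helicase, with the help of MCM10. The cleavage divisions of the zebrafish embryo run on transcripts laid down in the egg, and the zygotic genome takes over before gastrulation. In Xenopus, MCM3 and MCM6 each exist in a maternal and a zygotic form. The RefSeq gene table lists the synonym MCM3m for zebrafish mcm3l and MCM3z for mcm3, and likewise MCM6m for mcm6l and MCM6z for mcm6. The gene mcm6l was not a member and was looked up after the members' values had been seen.

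In GRCz10, mcm3 lies on chromosome 20 from 34867318 to 34880864 on the plus strand, and mcm3l on the same chromosome from 6526576 to 6542515 on the minus strand. The mcm6 gene lies on chromosome 6 from 12733207 to 12755502, and mcm6l on chromosome 2 from 50465508 to 50491283. The libraries do not mark the strand of origin. The mcm3 locus overlaps stmn4 and the mcm7 locus tmem107, each on the other strand, and the mcm6 locus overlaps si:ch73-71c20.5 on its own strand. None of these neighbours passed the authors' test at 53 mGy/h, where stmn4 stood at 11.2 RPM in exposed embryos and 9.42 RPM in controls. In the 1 yr brood stmn4 was the only neighbour called, at 5.53 RPM in 8.7 mGy/h embryos and 9.07 RPM in controls. How reads shared by similar genes such as mcm3 and mcm3l were counted is not given in the sources used here.

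Every level below is the authors' single value for a group in RPM, a read count scaled to the size of the library, so no spread between libraries can be shown. RPM is not corrected for transcript length, and levels of different genes are therefore not ranked. A gene is called changed where the false discovery rate (FDR) in the authors' deposited table is under 0.05, and the log2 change is the exposed minus the control log2 RPM. The smallest depths that fit the deposited values were 22.6 to 27.7 M reads a library (geometric mean of each group). The lowest member value, mcm6 at 53 mGy/h, thus stands for at least about 296 reads per library. Counting error alone gave standard errors of 0.01 to 0.06 on the log2 changes of the members. In pooled embryos, fewer cells carrying a transcript and less transcript per cell cannot be told apart.

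At 53 mGy/h, 0 yr, mcm2, mcm3 and mcm6 fell between 2.16-fold and 7.16-fold by the authors' deposited table, the other 3 ring subunits were not called, and mcm3l rose. Of the 8 members, 4 fell, against 21.5% of all genes in the table, and 1 rose, against 22.1%. The falls were those of mcm6, mcm3, mcm2 and mcm10. The remaining members, mcm4, mcm5 and mcm7, were not called.

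The largest fall was in mcm6, whose protein binds the loading factor CDT1 in human cells. It was at 10.9 RPM in 53 mGy/h embryos, against 77.7 RPM in controls, a log2 change of -2.84. The authors' deposited table lists it 7.16-fold lower with an FDR of 1.52e-16. Counted from the largest fall, mcm6 ranked 347 of 13714 genes. The mcm3 transcript was at 22.4 RPM in 53 mGy/h embryos and 133 RPM in controls. MCM3 is the subunit that contacts the origin-bound loading complex first in yeast. Its log2 change was -2.57, with an FDR of 5.49e-19 listed in the authors' deposited table. For mcm2, whose product also binds histones H3 and H4, the values were 43.6 RPM at 53 mGy/h and 94.0 RPM in controls, a log2 change of -1.11. Its listed FDR was 6.89e-09 in the authors' deposited table. The mcm10 transcript stood at 22.3 RPM in 53 mGy/h embryos, against 27.4 RPM in controls. Its FDR of 0.0479 in the authors' deposited table lay just under the threshold, and mcm10 is not called with an FDR under 0.01. Its log2 change was -0.30. Among genes within 0.25 log2 units of its level, the smallest called fall was -0.24 and the smallest called rise 0.49.

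The other subunits of the ring differed little between the same groups. The levels of mcm4, a substrate of the CDC7-DBF4 kinase, were 160 RPM at 53 mGy/h and 159 RPM in controls. For mcm5, which forms the gate of the ring together with mcm2, they were 141 RPM at 53 mGy/h and 146 RPM in controls. For mcm7, a subunit of the catalytic core with mcm4 and mcm6, they were 389 RPM at 53 mGy/h and 397 RPM in controls. Their FDR values in the authors' deposited table ran from 0.33 for mcm5 to 0.569 for mcm4. As deposited, the log2 changes of mcm4, mcm5 and mcm7 were 0.00, -0.05 and -0.03. Among genes within 0.25 log2 units of the level of each, the smallest called falls were -0.15, -0.19 and -0.16. The smallest called rises among the same genes were 0.45, 0.48 and 0.47. Calls in this comparison were thus not symmetric about a log2 change of 0, and smaller falls than rises were called. Over all genes the median log2 change was 0.12. On a separate scale, less the median of genes at 10 RPM or more (0.11), mcm4, mcm5 and mcm7 lay at -0.11, -0.17 and -0.14. The log2 changes of the 6 subunits thus spanned 2.84 in this comparison. The plot of levels by group shows the drop at 53 mGy/h in the mcm2, mcm3 and mcm6 panels.

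**Figure D1:**
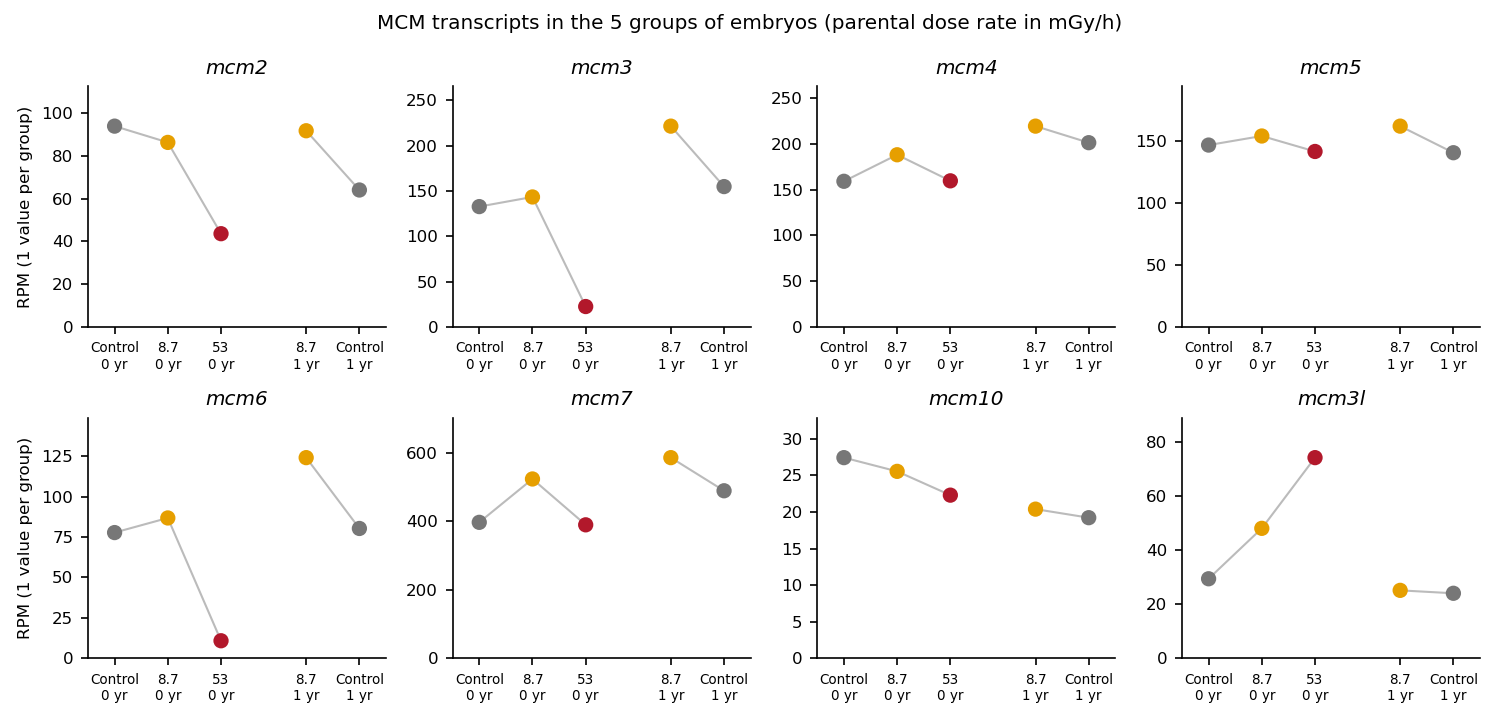
RPM of each MCM gene (vertical axis, from 0, own scale per panel) in the 5 groups of embryos (horizontal axis, parental dose rate in mGy/h and brood). Each point is the authors' single value for a group and lines join the groups of a brood. At 53 mGy/h, mcm3 (22.4 RPM) and mcm6 (10.9 RPM) are at their lowest and mcm3l (74.2 RPM) is at its highest.

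At 8.7 mGy/h, 0 yr, mcm3l was the only member called. Called genes made up 0.151% of the table for rises and 0.143% for falls. The mcm3l transcript was at 48.1 RPM in 8.7 mGy/h embryos, against 29.4 RPM in controls, a log2 change of 0.71. The authors' deposited table lists it 1.63-fold higher with an FDR of 0.0179, so it is not called with an FDR under 0.01. Its change was the 124th largest rise of 13263 genes.

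The other 7 members had log2 changes of -0.12 (mcm2) to 0.40 (mcm7) at this dose rate. The mcm7 transcript was at 523 RPM in 8.7 mGy/h embryos and 397 RPM in controls. Its FDR in the authors' deposited table was 0.731. Levels of mcm3 were 143 RPM at 8.7 mGy/h and 133 RPM in controls, and those of mcm6 were 86.8 RPM at 8.7 mGy/h and 77.7 RPM in controls. With so few genes called, a missing call does not show that these levels were alike.

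At 8.7 mGy/h, 1 yr, all 6 ring subunits rose, and neither mcm3l nor mcm10 was called. The 6 rises among 8 members compare with 20.0% of all genes called up, and the 0 falls with 22.4% called down. Genes within 0.25 log2 units of the level of each ring subunit were called up more often than all genes. Their rises were 36 of 51 for mcm7, 108 of 185 for mcm4, 128 of 222 for mcm3 and 133 of 281 for mcm5. For mcm6 they were 153 of 378 and for mcm2 175 of 487. Called falls near them ran from 0 of 51 for mcm7 to 75 of 487 for mcm2. The rises of the ring subunits lay between 0.12 and 0.63 on the log2 scale, beside a median of -0.09 over all genes. That of mcm6 alone reached 1.5-fold.

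Again mcm6, mcm2 and mcm3 moved most. The mcm6 transcript was at 124 RPM in 8.7 mGy/h embryos, against 80.3 RPM in controls, a log2 change of 0.63, with a listed FDR of 1.57e-23 in the authors' deposited table. For mcm2 the values were 91.9 RPM at 8.7 mGy/h and 64.1 RPM in controls, a log2 change of 0.52 (FDR 3.47e-15 in the authors' deposited table). For mcm3 they were 221 RPM at 8.7 mGy/h and 155 RPM in controls, also a log2 change of 0.52.

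The subunits that were not called at 53 mGy/h had the smaller rises. The mcm7 transcript stood at 586 RPM in 8.7 mGy/h embryos and 489 RPM in controls, mcm5 at 162 RPM in 8.7 mGy/h embryos and 140 RPM in controls, and mcm4 at 219 RPM in 8.7 mGy/h embryos and 201 RPM in controls. The smallest of these, the log2 change of 0.12 in mcm4, had an FDR of 0.00245 in the authors' deposited table. Among genes of like level to mcm4, the smallest called rise was 0.05 and the smallest called fall -0.24. A fall of the same size as the rise of mcm4 was therefore not called among them. The mcm10 transcript was at 20.4 RPM at 8.7 mGy/h and 19.2 RPM in controls, with an FDR of 0.18 in the authors' deposited table.

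**Figure D2:**
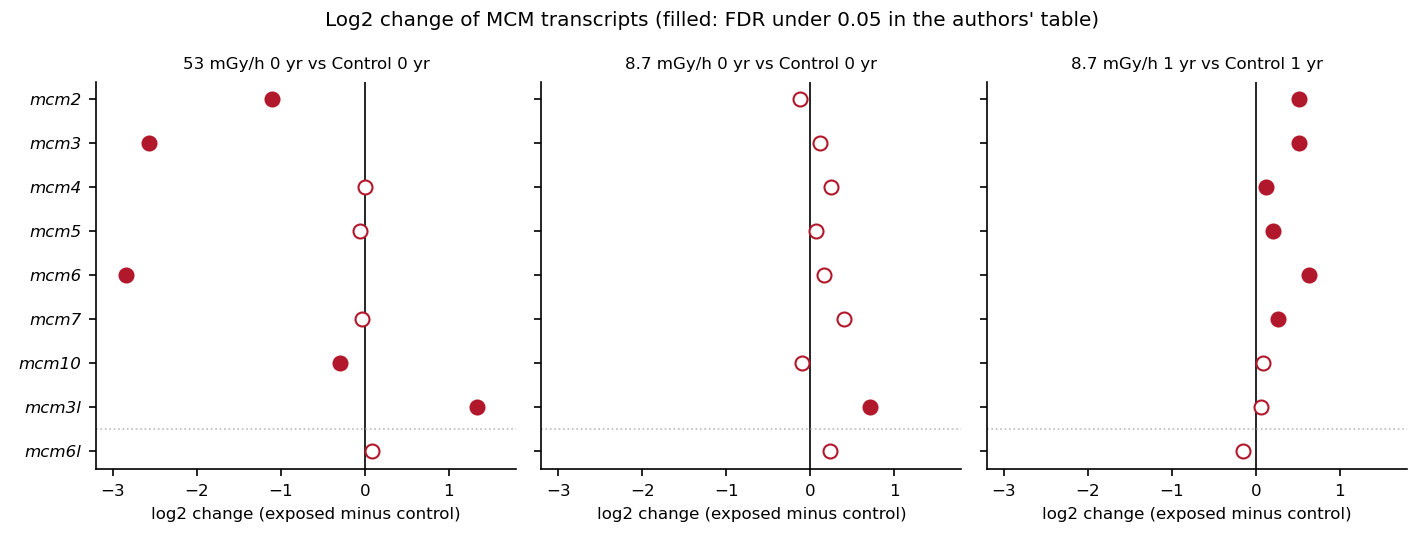
Log2 change (horizontal axis, exposed minus control) of the 8 members and of mcm6l, below the dotted line, in the 3 comparisons. Filled points have an FDR under 0.05 in the authors' deposited table. The falls of mcm2, mcm3 and mcm6 stand in the left panel (-1.11 to -2.84) and their rises in the right panel (0.52 to 0.63), while mcm3l is filled in the first and second panels.

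The gene mcm3l was called up in both 0 yr comparisons, in which none of the ring subunits was called up. Its level at 0 yr was 29.4 RPM in controls, 48.1 RPM at 8.7 mGy/h and 74.2 RPM at 53 mGy/h. At 53 mGy/h its log2 change was 1.33, and the authors' deposited table lists it 2.52-fold higher with an FDR of 4.48e-18. The 0 yr comparisons share their 2 control libraries, so these rises are not independent of each other. At 1 yr mcm3l stood at 25.1 RPM in 8.7 mGy/h embryos and 24.1 RPM in controls, with an FDR of 0.311 in the authors' deposited table. Both 1 yr values were below the 0 yr control, a difference between separate tables that was not tested. Among genes of like level in the 1 yr table, the smallest called rise was 0.13, against the 0.06 of mcm3l, and the smallest called fall was -0.32.

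A ratio of mcm3l to mcm3 within a group does not depend on the scaling of the libraries. Its log2 value at 0 yr was -2.17 in controls, -1.58 at 8.7 mGy/h and 1.73 at 53 mGy/h. The ratio was therefore 15.0-fold higher at 53 mGy/h and 1.51-fold higher at 8.7 mGy/h than in controls. At 1 yr its log2 value was -3.14 at 8.7 mGy/h and -2.69 in controls, a difference of -0.45. Counting error on these differences was 0.05 to 0.06 (standard error, log2), and without values per library they have no test. The summed RPM of both genes was 96.6 at 53 mGy/h and 162 in 0 yr controls, and 247 at 8.7 mGy/h and 179 in controls at 1 yr. Unlike the ratio, the sum depends on the scaling of the libraries. Neither the sum nor the ratio within a group is corrected for transcript length. A log2 ratio above or below 0 therefore does not rank the 2 genes.

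The pair of mcm6l and mcm6 had another pattern, since mcm6l itself was not called in any comparison. Its level was 119 RPM at 53 mGy/h and 112 RPM in controls, 132 RPM at 8.7 mGy/h, 0 yr, beside the same controls, and 112 RPM at 8.7 mGy/h and 125 RPM in controls at 1 yr. Over the 5 groups its highest value was 1.18 times its lowest, against 11.4 times for mcm6. The log2 ratio of mcm6l to mcm6 was 3.45 at 53 mGy/h and 0.53 in controls at 0 yr, and -0.15 at 8.7 mGy/h and 0.63 in controls at 1 yr. At 53 mGy/h this ratio was 7.60-fold higher than in controls, with mcm6 called and mcm6l not, while mcm3 and mcm3l were both called there.

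Other pairs of an oocyte-type gene and a relative were listed beside them, though in the pair of zar1 and zar1l both are egg genes. The early embryonic cyclin gene ccna1 was at 873 RPM in 53 mGy/h embryos and 367 RPM in controls, while the cyclin gene ccna2 was at 818 RPM in 53 mGy/h embryos and 802 RPM in controls. The maternal SoxB1 gene sox19b stood at 522 RPM at 53 mGy/h and 70.1 RPM in controls, and its relative sox19a at 31.8 RPM at 53 mGy/h and 180 RPM in controls. For the egg genes zar1 and zar1l, zar1 was at 28.8 RPM at 53 mGy/h and 21.1 RPM in controls (not called). The zar1l transcript was at 8.33 RPM at 53 mGy/h and 16.1 RPM in controls. At 53 mGy/h the ratio of sox19b to sox19a was 42.2-fold higher than in controls. That of zar1 to zar1l was 2.64-fold higher and that of ccna1 to ccna2 2.33-fold higher. At 1 yr ccna1 fell to 161 RPM in 8.7 mGy/h embryos, against 295 RPM in controls, and sox19b to 54.0 RPM in 8.7 mGy/h embryos, against 119 RPM in controls. In that comparison zar1 was called down with an FDR of 0.0478 in the authors' deposited table, just under the threshold. For zar1l the listed FDR was 0.0516, just above it. The sox19a transcript was called up there, at 299 RPM in 8.7 mGy/h embryos and 279 RPM in controls. At 8.7 mGy/h, 0 yr, none of these genes was called, beside 0.151% of rises and 0.143% of falls over all genes. The linker histone gene h1f0, whose oocyte-type partner h1m was not matched, was at 0.35 RPM at 53 mGy/h and 2.18 RPM in controls. Its 53 mGy/h value is under 1 RPM and rests on few reads. At 1 yr h1f0 was called up, at 4.08 RPM at 8.7 mGy/h and 3.02 RPM in controls. Its FDR there was 0.0498 in the authors' deposited table, just under the threshold.

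**Figure D3:**
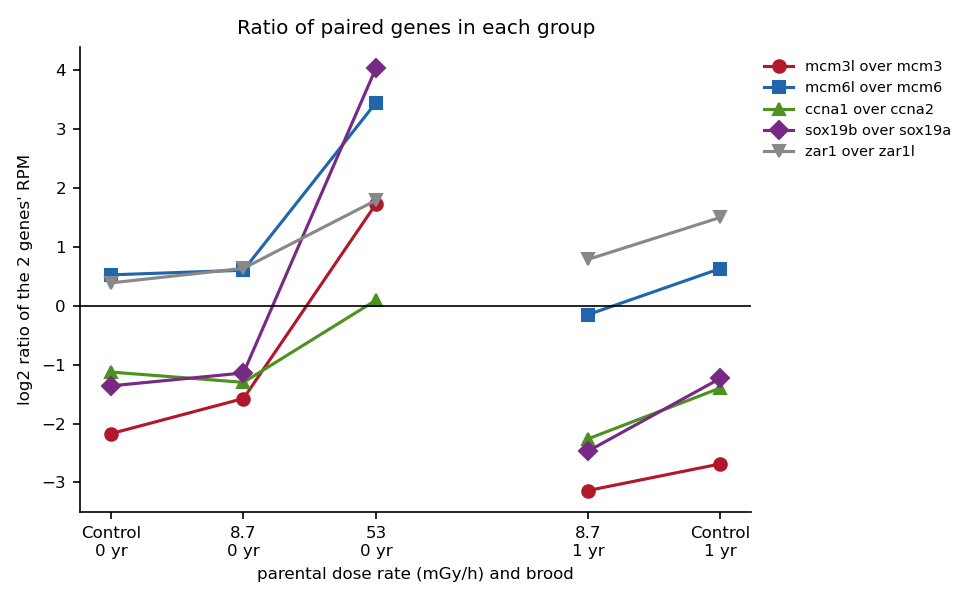
Log2 ratio of the RPM of paired genes (vertical axis) in each group (horizontal axis). Lines join the groups of a brood. At 53 mGy/h each of the 5 pairs has its highest ratio of all groups. The log2 ratio there is 1.73 for mcm3l to mcm3, 3.45 for mcm6l to mcm6 and 4.04 for sox19b to sox19a. For zar1 to zar1l it is 1.79 and for ccna1 to ccna2 0.095. At 1 yr all 5 pairs lie lower at 8.7 mGy/h than in controls. The pairs were chosen with earlier results of these data known, and mcm6l was looked up after the members' values had been seen. No background of other gene pairs was taken, and a pattern common to the pairs was not tested. At 53 mGy/h mcm6l, zar1 and ccna2 were not called. The ratios are not corrected for transcript length.

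The rest of the replication machinery was read from 6 lists holding 77 genes, of which 72 were listed in both 0 yr tables and 71 at 1 yr. At 53 mGy/h 13 of 72 rose (18.1%) and 17 fell (23.6%), near the 22.1% and 21.5% over all genes, and the median log2 change was 0.05, beside 0.12 over all genes. At 8.7 mGy/h, 0 yr, 0 of 72 were called, near the 0.151% of rises and 0.143% of falls over all genes. At 8.7 mGy/h, 1 yr, 22 of 71 rose (31.0%) and 13 fell (18.3%), beside 20.0% and 22.4% over all genes, with a median log2 change of -0.04, beside -0.09 over all genes. With a change of at least 1.5-fold required as well, 1 rise and 6 falls were left at 1 yr, and at 53 mGy/h 12 rises and 11 falls. Falls thus outnumbered rises at 1 yr at this setting. No share over all genes was taken with the 1.5-fold requirement or with an FDR under 0.01, here or below. Counts under either setting therefore have no background to be read against.

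Among the 9 licensing genes, whose products load the MCM ring or restrain its loading, 3 subunits of the origin recognition complex rose at 53 mGy/h (33.3% of the list, beside 22.1% over all genes), and cdc6 was the 1 gene that fell (11.1%, beside 21.5%). The fall of cdc6 did not reach 1.5-fold. The orc1 transcript was at 90.7 RPM in 53 mGy/h embryos and 49.4 RPM in controls, orc3 at 39.8 RPM in 53 mGy/h embryos and 22.7 RPM in controls, and orc6 at 120 RPM in 53 mGy/h embryos and 73.1 RPM in controls. For cdc6 the values were 373 RPM at 53 mGy/h and 458 RPM in controls. At 1 yr 5 of the 9 fell (55.6%, beside 22.4% over all genes), 3 of them by at least 1.5-fold, and 1 rose (11.1%, beside 20.0%). The median log2 change of the list was -0.52, beside -0.09 over all genes. The orc6 transcript fell to 23.7 RPM in 8.7 mGy/h embryos, against 43.5 RPM in controls, and orc3 to 8.22 RPM, against 14.8 RPM in controls. The loading factor gene cdt1 was at 568 RPM at 8.7 mGy/h and 538 RPM in controls, a rise that is not called with an FDR under 0.01. The MCM relatives mcm8 and mcm9, which act in recombination, and mcmbp, whose product binds MCM subunits, were not called in any comparison. Their levels at 53 mGy/h and in 0 yr controls were 6.96 and 6.58 RPM for mcm8, 9.5 and 8.44 RPM for mcm9, and 68.6 and 65.7 RPM for mcmbp.

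Among 11 genes of helicase activation and origin firing, 4 rose (36.4%) and 3 fell (27.3%) at 53 mGy/h, beside 22.1% and 21.5% over all genes. The kinase subunit gene dbf4 fell to 3.88 RPM in 53 mGy/h embryos, against 14.7 RPM in controls, and cdc45 to 4.11 RPM, against 8.78 RPM in controls. The helicase gene RECQL4 rose to 66.6 RPM at 53 mGy/h, against 30.7 RPM in controls, and the scaffold gene topbp1 to 40.2 RPM, against 20.3 RPM. At 1 yr 5 of the 11 rose (45.5%) and 2 fell (18.2%), beside 20.0% and 22.4% over all genes. By the authors' deposited table, 3 rises were left with an FDR under 0.01, and 0 rises and 1 fall reached 1.5-fold. The rises included gins4, at 5.13 RPM in 8.7 mGy/h embryos and 3.68 RPM in controls, and cdc45, at 7.87 RPM in 8.7 mGy/h embryos and 5.70 RPM in controls. RECQL4 fell to 13.2 RPM at 8.7 mGy/h, against 21.4 RPM in controls, and dbf4b, which encodes another CDC7 partner, to 10.8 RPM, against 15.3 RPM.

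Of 26 elongation genes, 4 rose (15.4%) and 6 fell (23.1%) at 53 mGy/h, beside 22.1% and 21.5% over all genes. The median log2 change of the list was -0.07, beside 0.12 over all genes, and 3 of the falls reached 1.5-fold. The clamp loader gene rfc1 rose to 57.7 RPM in 53 mGy/h embryos, against 11.1 RPM in controls, and the polymerase delta subunit gene pold2 to 15.0 RPM, against 7.19 RPM. The polymerase genes pole and pola1 fell to 11.5 RPM and 31.3 RPM at 53 mGy/h, against 20.3 RPM and 52.6 RPM in controls. At 1 yr 7 rose (26.9%) and 6 fell (23.1%), beside 20.0% and 22.4% over all genes, and of these 0 rises and 2 falls reached 1.5-fold. The DNA ligase gene lig1 was at 176 RPM in 8.7 mGy/h embryos and 137 RPM in controls, and pole at 15.9 RPM and 13.5 RPM. The primase subunit gene prim2 fell to 8.37 RPM in 8.7 mGy/h embryos, against 12.7 RPM in controls, and rfc1 to 8.92 RPM, against 15.7 RPM.

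Of 9 genes of replication-coupled chromatin assembly, 0 rose (beside 22.1% over all genes) and 2 fell (22.2%, near the 21.5% over all genes) at 53 mGy/h. They were the histone chaperone gene nasp, at 152 RPM in 53 mGy/h embryos and 302 RPM in controls, and ssrp1b, at 0.67 RPM and 1.94 RPM. The 53 mGy/h value of ssrp1b is under 1 RPM and rests on few reads. At 1 yr 3 of the 8 listed rose (37.5%, beside 20.0% over all genes) and 0 fell (beside 22.4%), and 0 of the rises reached 1.5-fold. They were nasp, at 184 RPM in 8.7 mGy/h embryos and 161 RPM in controls, and the genes of the histone chaperone FACT, supt16h and ssrp1a, with log2 changes of 0.18 and 0.10.

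The E2F and pocket protein genes, which regulate S phase transcription, had 5 falls (35.7%) and 2 rises (14.3%) among 14 at 53 mGy/h, beside 21.5% and 22.1% over all genes. With an FDR under 0.01 in the authors' deposited table, 2 falls and 1 rise were left. At 1 yr they had 6 rises (42.9%) and 0 falls, beside 20.0% and 22.4% over all genes, and 1 of the rises reached 1.5-fold. The pocket protein gene rbl1 fell to 11.0 RPM in 53 mGy/h embryos, against 27.5 RPM in controls, and e2f8 to 38.4 RPM, against 93.3 RPM. The pocket protein gene rbl2 rose to 10.3 RPM at 53 mGy/h, against 2.71 RPM in controls, and E2F6 to 21.3 RPM, against 14.2 RPM. At 1 yr E2F2 stood at 21.0 RPM in 8.7 mGy/h embryos and 13.7 RPM in controls, and rbl1 at 34.2 RPM and 24.8 RPM.

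**Figure D4:**
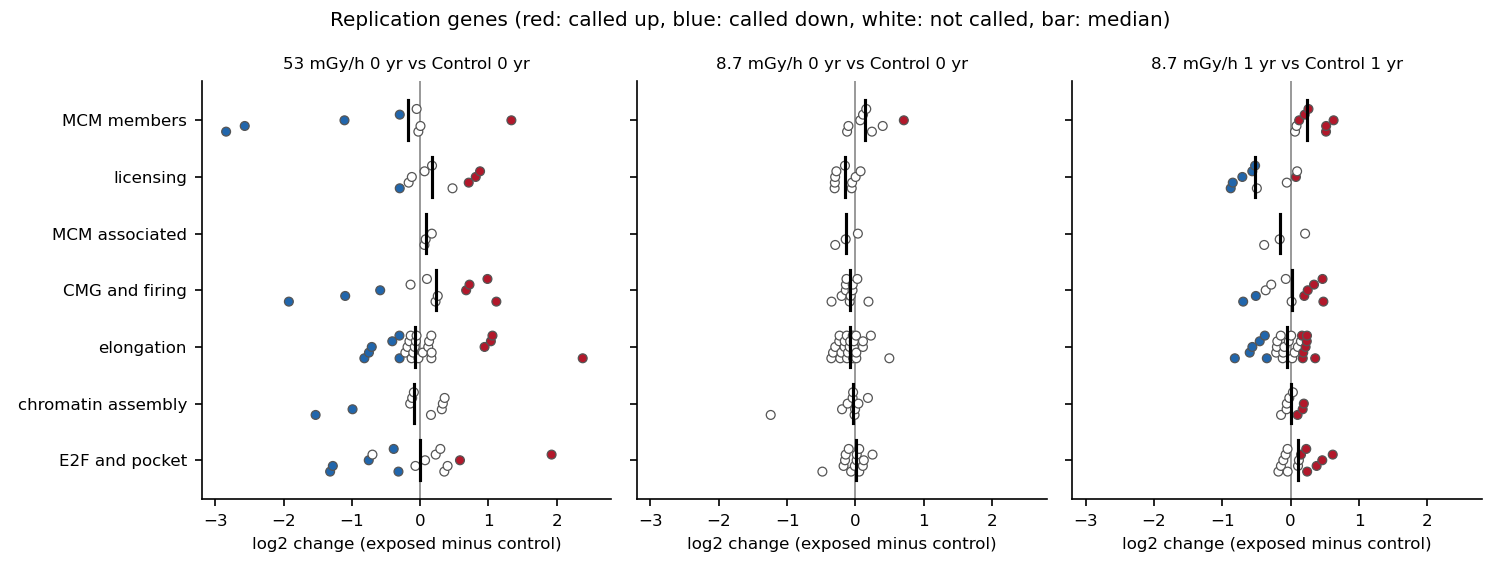
Log2 change (horizontal axis, exposed minus control) of the 8 members and of the genes of the 6 replication lists in the 3 comparisons. Each point is a gene, red where called up, blue where called down and white where not called, and the black bar is the median of the row. The median at 53 mGy/h is -0.18 for the members and 0.17 for the licensing genes, beside 0.12 over all genes, and the rows overlap (-2.84 to 1.33 for the members, -0.30 to 0.88 for the licensing genes). The difference between rows was not tested.

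The 53 mGy/h, 0 yr and 8.7 mGy/h, 1 yr comparisons share no libraries. Of the 4 members that fell at 53 mGy/h, 3 rose at 1 yr (mcm2, mcm3 and mcm6), which is 75% of the 4 and 50% of the 6 that rose. Over all 12154 genes in both tables, 1396 fell at 53 mGy/h and rose at 1 yr, 49.6% of the falls and 59.9% of the rises. In the replication lists 12 genes did so, 75% of the 16 falls and 54.5% of the 22 rises. A rise at 53 mGy/h and a fall at 1 yr was found for 8 listed genes, 61.5% of their 13 rises and of their 13 falls, among them orc1, orc3, orc6 and rfc1. Over all genes 1672 did so, 62.4% of the rises and 59.9% of the falls, so the share in the lists was near the background. Only 1 member, mcm3l, rose at 53 mGy/h, and 0 members fell at 1 yr. From the largest change down, the ring subunits ran mcm6, mcm3, mcm2, mcm5, mcm7, mcm4 at 53 mGy/h and mcm6, mcm2, mcm3, mcm7, mcm5, mcm4 at 1 yr. Close neighbours in these orders cannot be separated without values per library. At 1 yr mcm2 and mcm3 had log2 changes of 0.519 and 0.517. At 53 mGy/h mcm5, mcm7 and mcm4 were not called, with log2 changes of -0.05, -0.03 and 0.00.

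**Figure D5:**
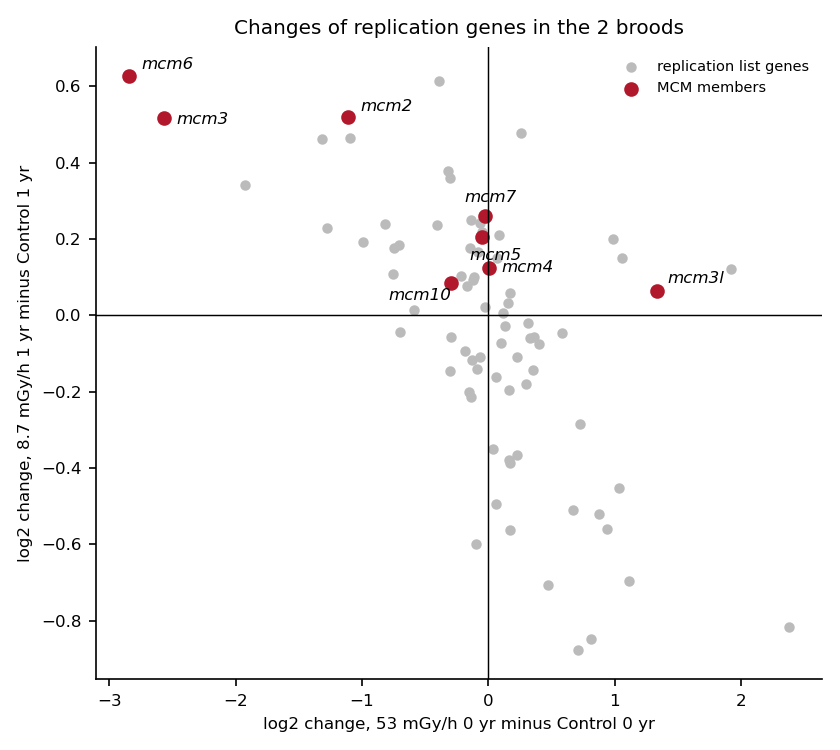
Log2 change at 8.7 mGy/h, 1 yr (vertical axis) against that at 53 mGy/h, 0 yr (horizontal axis), each exposed minus its own control. Red points are the 8 members and grey points the genes of the replication lists. The points of mcm6, mcm3 and mcm2 lie in the upper left, and mcm3l lies at the right (1.33) close to the line of no change at 1 yr (0.06).

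Profiles over the 5 groups were compared by the root mean square distance between log2 levels, each gene less its own mean, among 6821 genes at a mean of 10 RPM or more. The genes nearest to mcm3l were si:dkey-81e3.2 (0.107), dlg5b.1 (0.117), the ATP synthase subunit gene atp5b (0.175), zgc:111976 (0.182) and aatkb (0.191). The first of them was at 15.4 RPM in controls, 23.0 RPM at 8.7 mGy/h and 35.9 RPM at 53 mGy/h in the 0 yr brood. Of the other members, mcm10 was nearest to mcm3l (0.595) and mcm6 farthest from it (1.8). The genes nearest to the mean profile of the 6 ring subunits were the ubiquitin ligase gene siah1 (0.0562), arl14ep (0.0677), the autophagy gene map1lc3b (0.0712), rbl1 (0.0780) and tmcc3 (0.0905). The mean combines subunits that differed by up to 2.84 in their change at 53 mGy/h.

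Across the 5 groups the members differed in how far their levels ranged. The highest level was 11.4 times the lowest for mcm6 and 9.89 times for mcm3, in both cases 8.7 mGy/h, 1 yr over 53 mGy/h, 0 yr. It was 3.09 times for mcm3l (53 mGy/h, 0 yr over control, 1 yr) and 2.16 times for mcm2 (control, 0 yr over 53 mGy/h, 0 yr). For mcm7, mcm10, mcm4 and mcm5 it was 1.50, 1.43, 1.38 and 1.15 times. Levels of the 2 broods come from separate tables, and without values per library neighbouring groups in these orders cannot be separated.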

How the data were processed

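The authors deposited 3 tables, each setting 1 exposed group against its control with 1 pooled value per group and gene. Per the file headers, the authors gave levels as RPM and log2 RPM. They also deposited the fold difference as a ratio and again as a signed score, and an FDR (adjusted p-value) from a test that the tables do not name. Per the submitters' processing notes, which give no roles, the genome build was GRCz10 and the tools were DESeq2, STAR 2.5.2b, FastQC 0.11.5 and Trim Galore 0.4.2. Depth was taken as the smallest geometric mean at which the 150 lowest values at or above 0.4 RPM, raised to the number of libraries, were whole reads (tolerance 0.04), which held for 100% of them in each group. The single depths, and depth beyond that minimum, are unknown. Calls, medians, ratios and profile distances over all genes were computed with Python 3.11.15, numpy 2.4.6 and pandas 2.3.3. Only the depth fit, the calls and the search for nearest profiles were tested on simulated data. Listed symbols were matched in any letter case by gene ID. Named were all members, the MCM relatives and paired genes, and from each list of 8 or more genes the 2 largest called changes per direction (all, where 4 or fewer were called), plus the 5 nearest profiles. The members and lists were chosen with earlier results of these data known. Replicates measure only the spread between pools of embryos.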

Additional observations from a re-analysis of the deposited data

How the results depend on the processing

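The tables hold no values per library, so leaving out replicates was not possible. No paired analysis was possible because each group has only 1 deposited value per gene. The planned promoter motif search, protein comparison and levels per coding length were not run. Requiring a change of at least 1.5-fold as well left 11 replication list falls at 53 mGy/h, and at 1 yr 1 member rise, 1 list rise and 6 list falls. With an FDR under 0.01, 0 members were called at 8.7 mGy/h, 0 yr, and mcm10 was no longer called at 53 mGy/h. In all, 81 counts and values of the members, of mcm3l, of mcm3 and of the summed lists were recomputed. The other 76 stayed within 1.5 times or kept their call, including the member falls at 53 mGy/h without mcm10 (3 against 4). Further settings were an FDR of 0.1, a floor of 1 RPM, a recentred log2 change and a pseudocount of 0.5 RPM. Matching symbols in the same case was chosen after seeing the data. Some settings could hardly move a member. All members lay well above the floor and the pseudocount, and recentring kept the authors' FDR. A count of 0 as reported could only stay 0 with a stricter FDR, a 1.5-fold requirement or the floor. The 76 above and the 233 below include such counts, so neither number measures how robust the results are. Of the values of single genes and lists, 233 stayed and 27 moved. Among these, the uncalled mcm4 and mcm6l at 53 mGy/h lay at -0.11 and -0.03 on the log2 scale after recentring, below 0, against 0.00 and 0.09 as deposited. No called value changed sign. With a floor of 1 RPM, 2 of the 5 profiles nearest to mcm3l and 1 of the 5 nearest to the ring subunits were shared with those named.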

Other observations

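The gene mcm3ap, whose product associates with MCM3 and acts in mRNA export, was looked up after the members' values had been seen. It was at 36 RPM in 53 mGy/h embryos and 68.9 RPM in controls, and the authors' deposited table lists it 1.91-fold lower with an FDR of 7.29e-07. At 8.7 mGy/h, 0 yr, it was at 52.9 RPM beside the same controls and was not called. At 1 yr it was at 41.1 RPM in 8.7 mGy/h embryos and 51.2 RPM in controls, with an FDR of 0.0725 in the authors' deposited table. It therefore had the direction of mcm3 at 53 mGy/h but not its rise at 1 yr.

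The unexposed controls of the 2 broods also stood at different MCM levels, in separate tables and without a test. The 1 yr controls minus the 0 yr controls came to -0.55 for mcm2 and -0.51 for mcm10 on the log2 scale, and to 0.34 for mcm4 and 0.30 for mcm7. At 1 yr mcm2 rose to 91.9 RPM at 8.7 mGy/h, against 64.1 RPM in controls, which is near the 94.0 RPM of the 0 yr controls. Without values per library, 91.9 and 94.0 RPM cannot be separated.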
